A study of Mus musculus with 8 samples.

Results

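The genes described here are *Prss16*, *Ctsl*, *Ctsb*, *Ctsd*, *Ctss*, *Ctsh*, *Ctsz*, *Ctsc* and *Lgmn*, 9 of the 56923 genes with a row in the count files. They were chosen by name as lysosomal proteases that take part in processing self-peptides, and each matched 1 Ensembl mouse gene id. Levels were compared over 4 groups of wild-type mouse thymic epithelial cells (TECs), with 2 libraries in each. The labels call the libraries of a group biological replicates.

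All cells came from E16.5 thymi of C57BL/6J mice. They were stained with antibodies to EpCAM (an epithelial surface protein), CD45 (on blood cells), CD31, PDGFR-α, PDGFR-β, Ter119 and MHC class II (which displays peptides). Cells positive for EpCAM were sorted. The isolation protocol collected sorted cells in the medium of the cultures with serum and the compound thiazovivin added. *In vivo* TECs were lysed straight after the sort and were not cultured. 2D-cultured TECs grew for 3 days on plates coated with laminin, and D3 and D7 organoids grew for 3 or 7 days in Matrigel, a gel of basement membrane proteins. The 3 cultures shared 1 defined medium containing FGF7, a fibroblast growth factor that acts on epithelium. The organoid protocol also added thiazovivin to it for the first 2 days, and whether 2D cultures received it is not stated. There were 2 mice per condition, and whether a library pooled embryos is not given in the sources used here. The comparison asks which proteases sorted TECs keep when they are grown on a plate or as organoids.

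Developing T cells in the thymic cortex are selected on peptides that cortical TECs display on MHC class II molecules. Those peptides are cut from proteins in lysosomes and late endosomes, where proteases also remove the invariant chain (CD74) that blocks the peptide groove of newly made class II molecules. Cortical TECs are known for a protease set of their own, with cathepsin L (*Ctsl*) and the thymus-specific serine protease (*Prss16*), whereas cathepsin S (*Ctss*) does the last cut of the invariant chain in dendritic cells and B cells. The other members are cathepsins B, C, D, H and Z and the asparaginyl endopeptidase legumain (*Lgmn*), which work in lysosomes of most tissues.

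Each library was read from the 3′ end of polyadenylated RNA and held 5084715 to 7612532 counts on 16748 to 19943 genes. Levels are in CPM, the count relative to the library size after scaling by edgeR's TMM factors. Fold changes, as the first-named group over the second, come from the quasi-likelihood test of edgeR, fitted to 14504 genes in the 8 libraries together, with a threshold of 0.05 on the p adjusted over those genes by the Benjamini-Hochberg method. All 9 members passed the filter on low counts, which asked for 1 CPM in 3 libraries, but *Ctss* did so only through both *in vivo* libraries and 1 2D library. With 2 libraries a group, an exact two-sided test of a single gene cannot go below p = 0.333, so the test rests on a spread estimated across genes and groups. The 5 epithelial markers (*Epcam*, *Cdh1*, *Krt8*, *Krt18* and *Krt19*) had counts in every library and summed to 1492 to 7181 CPM. The 12 thymocyte markers summed to 595 and 260.3 CPM in the *in vivo* libraries and to at most 9.46 CPM in the cultures, so the *in vivo* libraries also held thymocyte RNA. In such bulk samples, fewer cells of a type and less RNA per cell cannot be told apart.

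In 2D culture, 3 members were lower than *in vivo* (*Prss16*, *Ctsl* and *Ctss*) and the other 6 were higher, so that all 9 passed the threshold in a comparison where 41.6% of all genes did. In D3 organoids, 3 members were higher and 3 lower than *in vivo*, beside 28.2% of all genes called. In D7 organoids, 3 members were higher and 4 lower, beside 34.8%. The lower members of each culture include *Ctss*, which passed the filter mainly through the *in vivo* libraries, where it was high. The median log2 fold change over the 9 members was 1.22 in 2D, 0.42 at D3 and -0.59 at D7, against -0.06, -0.01 and 0.01 over all genes. These 3 comparisons share the *in vivo* libraries. *Prss16*, *Ctsl* and *Ctss* were below the *in vivo* level in each culture, *Ctsb* and *Ctsd* were above it in each, and *Lgmn* was above it at 3 days and below it at 7.

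**Figure D1:**
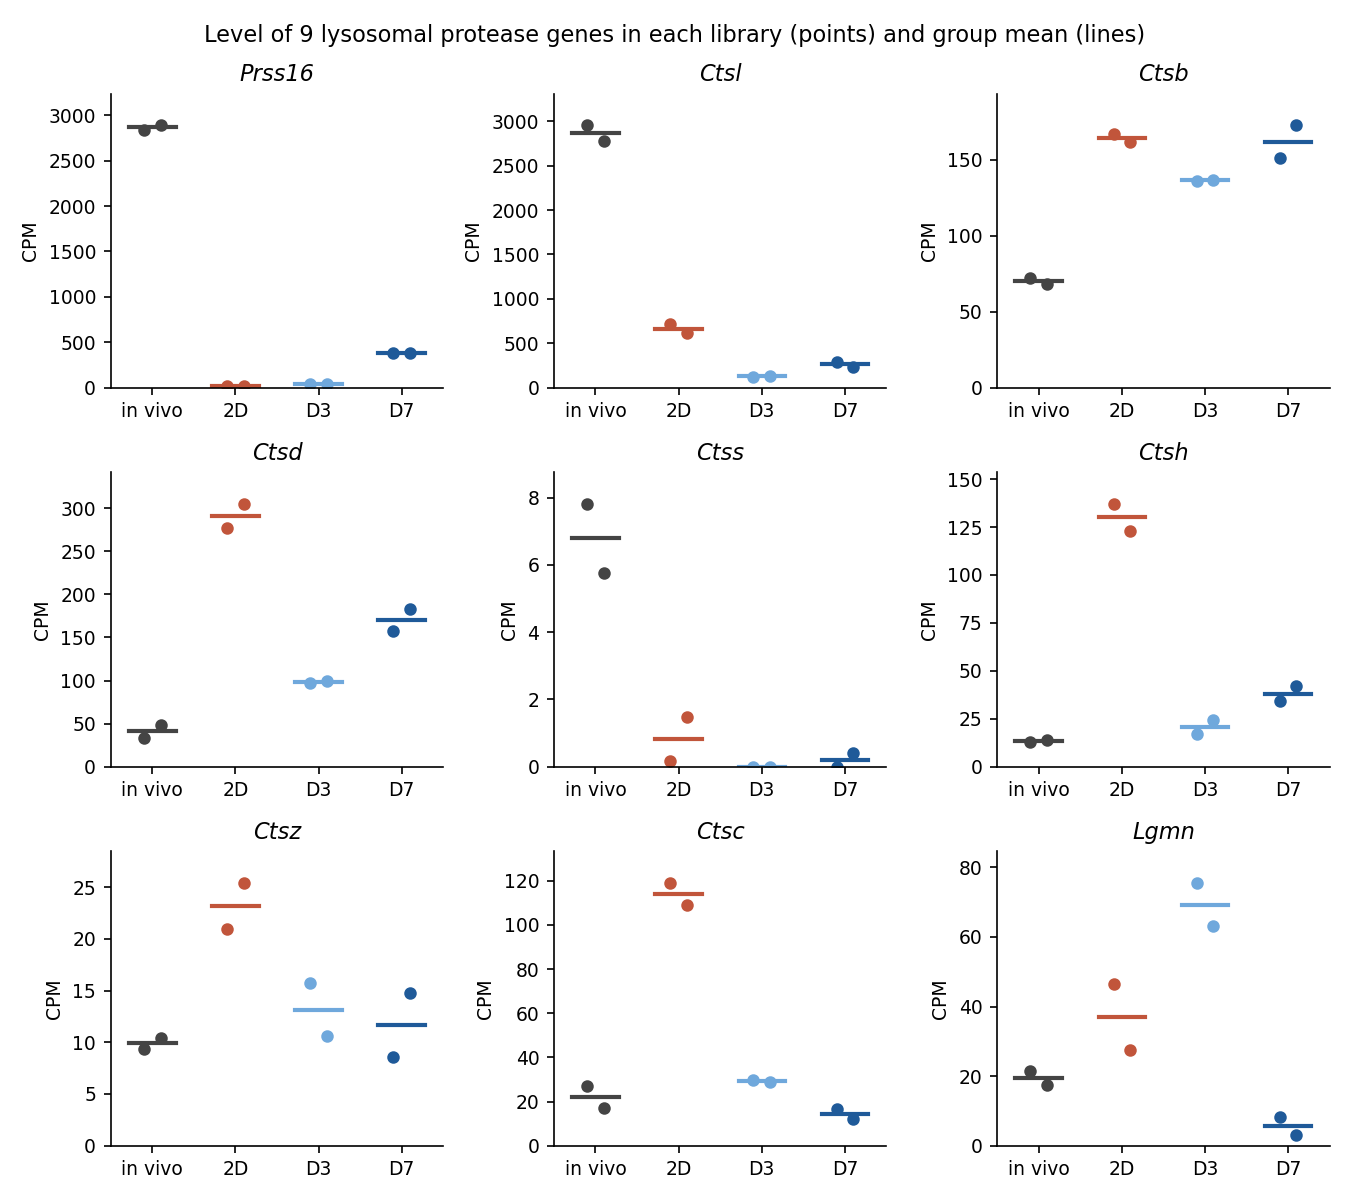
CPM (y axis, from 0, own scale per gene) of the 9 protease genes in each library (points) of the 4 groups, with the group mean as a line. *Prss16* and *Ctsl* are at 2782 to 2958 CPM *in vivo* and at most 713 CPM in each culture, while *Ctsd*, *Ctsh* and *Ctsc* are highest in 2D and *Lgmn* is highest at D3.

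*Prss16* encodes a serine protease made almost only in the thymus. It was measured at 2839 and 2893 CPM in the *in vivo* libraries, 16.7 and 15.9 CPM in 2D, 41.6 and 43.7 CPM in D3 organoids, and 378 and 387 CPM in D7 organoids. The groups did not overlap, and the order was *in vivo*, D7, D3, 2D with every neighbouring pair apart. The level in 2D was 176-fold below *in vivo* (log2 fold change -7.46, SE 0.18, edgeR adjusted p = 4.2e-14). D3 organoids were 67.1-fold below *in vivo* (log2 -6.07, SE 0.17, edgeR adjusted p = 1.9e-13). D7 organoids remained 7.49-fold below (log2 -2.91, SE 0.14, edgeR adjusted p = 1.5e-10). Among the cultures, D7 organoids were 23.4-fold above 2D (log2 4.55, SE 0.16, edgeR adjusted p = 2.7e-12) and 8.96-fold above D3 (log2 3.16, SE 0.15, edgeR adjusted p = 1.0e-09). D3 organoids exceeded 2D, which had also been cultured for 3 days, by 2.62-fold (log2 1.39, SE 0.16, edgeR adjusted p = 2.6e-06).

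*Ctsl* encodes the cysteine protease that degrades the invariant chain in cortical TECs. Its level was 2958 and 2782 CPM *in vivo*, 713 and 612 CPM in 2D, 124 and 129 CPM at D3, and 294 and 231 CPM at D7. Here too no groups overlapped, but the cultures stood in another order than for *Prss16*, with 2D highest and D3 lowest. The fall from *in vivo* was 4.33-fold in 2D (log2 -2.12, SE 0.16, edgeR adjusted p = 7.5e-09), 22.6-fold at D3 (log2 -4.50, SE 0.17, edgeR adjusted p = 8.1e-12) and 10.9-fold at D7 (log2 -3.45, SE 0.16, edgeR adjusted p = 1.3e-10). D7 organoids held 2.07-fold more than D3 (log2 1.05, SE 0.15, edgeR adjusted p = 2.0e-04) and 2.52-fold less than 2D (log2 -1.33, SE 0.15, edgeR adjusted p = 2.1e-06). D3 organoids held 5.22-fold less than 2D (log2 -2.38, SE 0.16, edgeR adjusted p = 3.6e-09). Taken as 1 sum, *Prss16* and *Ctsl* made up 5797 and 5676 CPM *in vivo*, 729 and 628 CPM in 2D, 166 and 173 CPM at D3 and 672 and 618 CPM at D7. The other 7 members summed to 184 and 182 CPM *in vivo*, 768 and 753 CPM in 2D, 371 and 364 CPM at D3 and 375 and 429 CPM at D7. The first sum was lower and the second higher in every culture library than in both *in vivo* libraries. With each library left out in turn, the log2 fold change over *in vivo* stayed within -7.49 to -7.41 for *Prss16* in 2D and within -2.23 to -2.00 for *Ctsl* in 2D.

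**Figure D2:**
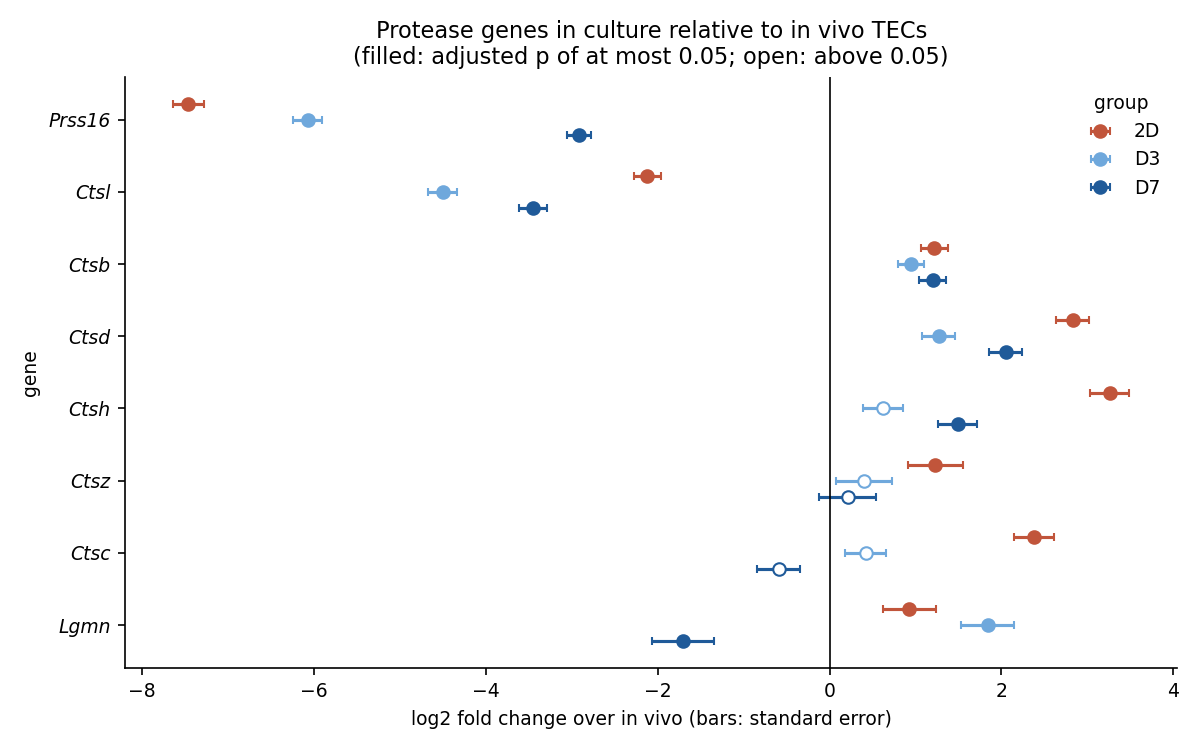
Log2 fold change over *in vivo* TECs (x axis, bars are the standard error) of 8 protease genes (y axis) in 2D, D3 and D7, with filled points at or below an adjusted p of 0.05 and open points above it. *Prss16* and *Ctsl* lie left of 0 in all 3 cultures, *Ctsb* and *Ctsd* lie right of 0 in all 3, and *Lgmn* changes side between D3 (1.84) and D7 (-1.70). *Ctss* is not drawn, because its counts in the organoids are at the floor of detection.

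*Ctss*, the invariant chain protease of dendritic cells and B cells and also counted here among genes of TECs of the thymic medulla, was near the limit of detection. Its raw counts were 45 and 41 *in vivo*, 1 and 8 in 2D, 0 and 0 at D3 and 0 and 2 at D7. In CPM these were 7.81 and 5.76 *in vivo*, 0.181 and 1.48 in 2D, 0 and 0 at D3, and 0 and 0.394 at D7. The *in vivo* libraries were above every culture library, whereas 2D and D7 overlapped. D3 organoids had no count, and since a count of 0 allows up to 3, a floor of 3 counts per library was used in their place. Against this floor, *in vivo* TECs were at least 14.7-fold higher than D3 organoids. D7 organoids had 2 counts in all, so a ratio with its counting interval is given, 44.0 from 86 against 2 counts (95% exact counting interval 11.8 to 369), and against 2D it was 8.1, from 86 against 9 counts (4.08 to 18.3). These intervals cover counting error only. The edgeR adjusted p was 0.032 for 2D, 0.0015 for D3 and 0.0048 for D7 over *in vivo*, and 0.046 for D3 over 2D. Because *Ctss* passed the filter only through its high *in vivo* libraries and 1 2D library, these p-values are given as a description.

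Leaving out single libraries ended 3 of these 4 *Ctss* calls. The 2D difference was log2 -3.00 (SE 1.06) with all libraries and, without 2D replicate 1, -2.17 with an edgeR adjusted p of 0.18, and without D7 replicate 1 the D7 difference had an edgeR adjusted p of 0.066. With D3 replicate 1 or D3 replicate 2 left out, the difference of D3 from 2D had an edgeR adjusted p of 0.13 or 0.15. The difference of D3 from *in vivo* kept its call in each fit that tested it. With either *in vivo* library or 2D replicate 2 left out, *Ctss* no longer met the filter and had no test. Marker sums of blood cells, like *Ctss*, were higher in both *in vivo* libraries than in any culture library. The thymocyte sum was 595 CPM in *in vivo* replicate 1 and 260.3 CPM in replicate 2, with 11 of 12 markers present in both, and 2.54 to 9.46 CPM in the cultures, with 4 to 6 of 12 present. The recombinase gene *Rag1*, which defines immature lymphocytes, had 1649 and 944 counts *in vivo* and 0 to 12 in the cultures. The sum of 16 myeloid markers was 127 and 65.9 CPM *in vivo* and 2.53 to 21.3 CPM in the cultures. It was higher at D7 (21.3 and 18.3 CPM) than in 2D (4.89 and 10.4 CPM), unlike *Ctss*. Of these 16 markers, 7 and 11 had counts in the *in vivo* libraries, most of them in *Ptprc* (CD45, on all white blood cells, 549 and 298 counts) and *Laptm5* (142 and 88 counts). *Lyz2* had 18 and 17 counts, *Fcer1g* 10 and 15, *Adgre1* 8 and 1, *Cd14* 3 and 6, *Cd68* 1 and 13, *Mrc1* 0 and 13, *Tyrobp* 0 and 10, *C1qc* 0 and 6 and *C1qb* 0 and 2. *Csf1r*, *Itgam*, *Itgax*, *C1qa* and *Flt3* were at 0 in both. At D7, *Lyz2* had 98 and 52 counts and *Cd14* 62 and 22, more than in either *in vivo* library. *Ptprc* had 1 and 4 counts there and *Laptm5* 1 and 3. Of the 3 myeloid markers that passed the filter, *Cd14* was higher at D7 than *in vivo*, *Ptprc* was lower and *Lyz2* missed the threshold. The part of blood cells or of medullary TECs in the *Ctss* result was not tested.

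**Figure D3:**
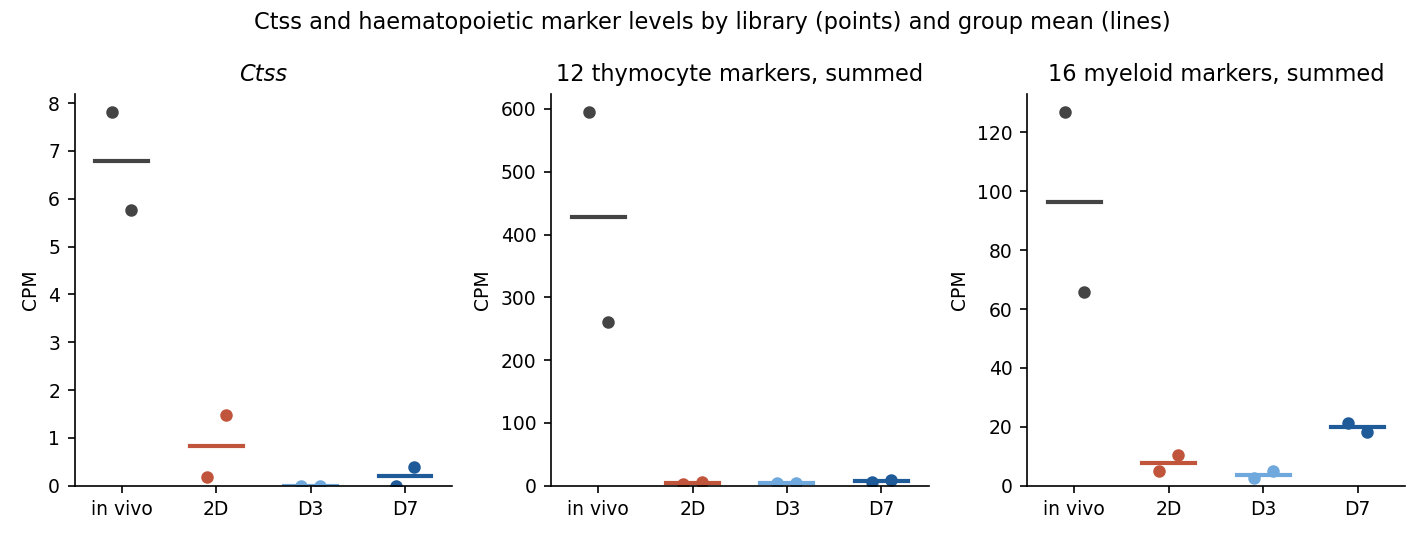
CPM (y axes, from 0) of *Ctss*, of the sum of 12 thymocyte markers and of the sum of 16 myeloid markers in each library (points), with group means as lines. All 3 measures are higher in both *in vivo* libraries than in any culture library, and the myeloid sum is 21.3 and 18.3 CPM at D7 where *Ctss* has 0 and 2 counts. The myeloid sum *in vivo* is mostly *Ptprc* and *Laptm5*, while *Lyz2* and *Cd14*, not drawn singly, had more counts at D7 than *in vivo*.

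*Ctsb* and *Ctsd* rose in every culture. Cathepsin B is a cysteine protease that cuts both within proteins and from their carboxyl end, and its gene was measured at 72.4 and 68.6 CPM *in vivo*, 167 and 162 CPM in 2D, 136 and 137 CPM at D3, and 151 and 173 CPM at D7. Each culture library was above both *in vivo* libraries, by 2.33-fold in 2D (edgeR adjusted p = 6.3e-06), 1.93-fold at D3 (edgeR adjusted p = 1.5e-04) and 2.30-fold at D7 (edgeR adjusted p = 1.3e-05). The cultures were not told apart from each other, with log2 fold changes of -0.27 (SE 0.15) for D3 over 2D, -0.02 (SE 0.15) for D7 over 2D and 0.25 (SE 0.15) for D7 over D3. The gene *Fdft1* runs on the other strand across the 3′ end of *Ctsb*, and counting by strand is not stated. It had 106 and 48 counts *in vivo* and 140 to 405 in the cultures, so its part in the *Ctsb* values cannot be told apart. Cathepsin D is the main aspartic protease of lysosomes. *Ctsd* stood at 32.8 and 48.9 CPM *in vivo*, 277 and 305 CPM in 2D, 97.4 and 100 CPM at D3, and 157 and 183 CPM at D7. No groups overlapped, with the order 2D, D7, D3, *in vivo*. The rise over *in vivo* was 7.09-fold in 2D (log2 2.83, SE 0.19, edgeR adjusted p = 3.1e-09), 2.41-fold at D3 (log2 1.27, SE 0.19, edgeR adjusted p = 5.8e-05) and 4.13-fold at D7 (log2 2.05, SE 0.19, edgeR adjusted p = 2.8e-07).

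*Ctsh* and *Ctsc*, which encode proteases that trim peptides from the amino end, were highest in 2D. *Ctsh* (an aminopeptidase) was measured at 13 and 13.9 CPM *in vivo*, 137 and 123 CPM in 2D, 16.8 and 24.5 CPM at D3, and 34.0 and 42.2 CPM at D7. The groups were apart, and 2D exceeded *in vivo* 9.61-fold (log2 3.26, SE 0.23, edgeR adjusted p = 4.0e-09) and D7 exceeded it 2.81-fold (log2 1.49, SE 0.23, edgeR adjusted p = 6.7e-05). The D3 difference from *in vivo*, log2 0.62 (SE 0.23), missed the threshold with an edgeR adjusted p of 0.053, and without D3 replicate 1 it was 0.86 with 0.022. *Ctsc* (dipeptidyl peptidase I, which also activates serine proteases of blood cell granules) was at 27.1 and 17.0 CPM *in vivo*, 119 and 109 CPM in 2D, 29.6 and 28.8 CPM at D3, and 16.7 and 12 CPM at D7. 2D was above all other groups, by 5.19-fold over *in vivo* (log2 2.38, SE 0.23, edgeR adjusted p = 2.9e-07). The organoid differences of *Ctsc* from *in vivo* missed the threshold, at log2 0.42 (SE 0.24, edgeR adjusted p = 0.21) for D3 and -0.59 (SE 0.25, edgeR adjusted p = 0.074) for D7. These passed it when 1 *in vivo* library was left out, at 0.78 (edgeR adjusted p = 0.04) for D3 without replicate 1 and -0.90 (edgeR adjusted p = 0.012) for D7 without replicate 2.

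*Ctsz* encodes cathepsin Z, a carboxypeptidase. Its level was 9.37 and 10.4 CPM *in vivo*, 21.0 and 25.4 CPM in 2D, 15.7 and 10.6 CPM at D3, and 8.53 and 14.8 CPM at D7. Both 2D libraries were above all others, and the D7 libraries overlapped with D3 and lay on either side of the *in vivo* libraries. The 2.34-fold rise in 2D passed the threshold (log2 1.23, SE 0.32, edgeR adjusted p = 0.0056), but had an adjusted p of 0.052 in the same test without 2D replicate 2. The organoids differed from *in vivo* by log2 0.40 (SE 0.33, edgeR adjusted p = 0.41) at D3 and 0.21 (SE 0.33, edgeR adjusted p = 0.67) at D7. The gene *Nelfcd* runs on the other strand across the 3′ end of *Ctsz* and had 69 to 263 counts. Counting by strand is not stated, so reads of the pair cannot be told apart here.

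*Lgmn* encodes legumain, which cuts after asparagine and also processes cathepsins B, H and L into their mature forms. It was measured at 21.5 and 17.3 CPM *in vivo*, 46.4 and 27.4 CPM in 2D, 75.5 and 63.1 CPM at D3, and 8.29 and 2.96 CPM at D7. No groups overlapped, with D3 highest and D7 lowest. *Lgmn* rose 3.58-fold over *in vivo* at D3 (log2 1.84, SE 0.31, edgeR adjusted p = 2.2e-04) and fell 3.25-fold below it at D7 (log2 -1.70, SE 0.36, edgeR adjusted p = 0.0014). D7 organoids thus held 11.6-fold less than D3 organoids (log2 -3.54, SE 0.35, edgeR adjusted p = 3.8e-06) and 6.20-fold less than 2D (log2 -2.63, SE 0.35, edgeR adjusted p = 1.1e-05). Without D7 replicate 1, which leaves the library with 15 counts, these falls were log2 -2.70 from *in vivo*, -4.54 from D3 and -3.63 from 2D. The rise in 2D, log2 0.93 (SE 0.31, edgeR adjusted p = 0.024), was lost without *in vivo* replicate 2 (0.78, edgeR adjusted p = 0.12) and without 2D replicate 1 (0.51, edgeR adjusted p = 0.33).

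Between cultures of the same age, D3 organoids differed from 2D in 8 of 9 members, beside 38.3% of all genes called. Of these, 2 were higher (*Prss16* and *Lgmn*) and 6 lower. The 6 include *Ctss*, which had 0 counts in both D3 libraries and 1 and 8 counts in 2D. The largest fall in size among well-counted members was in *Ctsh*, 6.24-fold (log2 -2.64, SE 0.22, edgeR adjusted p = 4.4e-08), followed by *Ctsl*. *Ctsc* fell 3.89-fold and *Ctsd* 2.95-fold, with an edgeR adjusted p of 2.8e-06 for each. The count was 5 without 2D replicate 2, when *Ctss* had no test and *Ctsz* (log2 -0.69, edgeR adjusted p = 0.21) and *Lgmn* (0.57, edgeR adjusted p = 0.25) missed the threshold. The *Lgmn* difference of log2 0.91 was also lost without D3 replicate 1 (0.77, edgeR adjusted p = 0.15). That of *Ctsz* (-0.83, edgeR adjusted p = 0.048) was lost too without 2D replicate 1 (edgeR adjusted p = 0.082) and without D3 replicate 2 (edgeR adjusted p = 0.31).

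D7 organoids differed from 2D in 7 of 9 members, with *Prss16* higher and *Ctsl*, *Ctsd*, *Ctsh*, *Ctsz*, *Ctsc* and *Lgmn* lower, beside 45.5% of all genes called. *Ctsc* was 7.82-fold lower (log2 -2.97, SE 0.24, edgeR adjusted p = 3.3e-08), *Ctsh* 3.42-fold lower (log2 -1.77, SE 0.21, edgeR adjusted p = 2.6e-06) and *Ctsd* 1.72-fold lower (log2 -0.78, SE 0.18, edgeR adjusted p = 0.0018). *Ctsz* was 2.02-fold lower (log2 -1.02, edgeR adjusted p = 0.016), and this was lost without 2D replicate 2 (-0.88, edgeR adjusted p = 0.10) or D7 replicate 1 (-0.65, edgeR adjusted p = 0.21).

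From D3 to D7, 4 members rose (*Prss16*, *Ctsl*, *Ctsd* and *Ctsh*) and 2 fell (*Ctsc* and *Lgmn*), where 20.8% of all genes were called. The sum of 7 mesenchyme markers was 21.7 and 17.8 CPM at D3 and 79.3 and 70.3 CPM at D7, against 45.3 and 46.0 CPM *in vivo*. Most of the D7 sum was *Dcn*, at 53.4 and 50.8 CPM. Of 5 that passed the filter, *Dcn* (10.1-fold), *Lum* (5.11-fold) and *Col3a1* (10.2-fold) rose from D3 to D7, and 2 were not called. Among these 2, *Col1a1* had means of 0.923 CPM at D3 and 1.33 CPM at D7 (log2 0.55, SE 0.69, edgeR adjusted p = 0.63). The part of mesenchyme in the result was not tested. *Ctsd* rose 1.72-fold (log2 0.78, SE 0.18, edgeR adjusted p = 0.0054), *Ctsh* rose 1.82-fold (log2 0.87, SE 0.22, edgeR adjusted p = 0.009) and *Ctsc* fell 2.01-fold (log2 -1.01, SE 0.24, edgeR adjusted p = 0.0073). These 3 calls were lost without D7 replicate 2, at log2 0.67 for *Ctsd* (edgeR adjusted p = 0.067), 0.72 for *Ctsh* (0.10) and -0.80 for *Ctsc* (0.10). *Ctsh* was also lost without D3 replicate 1 (0.63, edgeR adjusted p = 0.11). *Prss16*, *Ctsl* and *Lgmn* kept their calls with each library left out in turn. Over the 6 comparisons of groups, *Prss16*, *Ctsl*, *Ctsd* and *Lgmn* passed the threshold in all 6. *Ctsh* passed it in 5, *Ctss* and *Ctsc* in 4, and *Ctsb* and *Ctsz* in 3. Each comparison called 20.8% to 45.5% of all genes, and the comparisons share libraries. The share of all genes that passed in as many comparisons was not counted, so these tallies only describe the members.

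*Prss16* and *Ctsl* are cortical TEC genes, and 9 other genes known from cortical TECs were measured with them. All 9 were lower in 2D than *in vivo*, 8 of 9 were lower at D3 and 8 of 9 at D7, with none higher. Among all genes, 21.7%, 14.0% and 16.8% were lower in these comparisons. The median log2 fold changes of the 9 genes were -6.41, -5.22 and -2.30. From D3 to D7, 7 of 9 rose and none fell, with a median of 3.27, beside 10.9% of all genes that rose. *Psmb11*, a proteasome subunit of cortical TECs, had 522 and 554 CPM *in vivo*, 0.544 and 0.556 CPM in 2D, 0.505 and 0.975 CPM at D3, and 106 and 112 CPM at D7. *Foxn1*, the transcription factor that TEC identity depends on, had 223 and 273 CPM *in vivo*, 8.52 and 4.82 CPM in 2D, 8.76 and 9.61 CPM at D3, and 60.5 and 84.9 CPM at D7. Like *Prss16*, both genes were highest *in vivo* and higher at D7 than in the other cultures. *Cxcl12*, a chemokine that draws T-cell progenitors, had another pattern. It stood at 573 and 584 CPM *in vivo*, 6.16 and 5.56 CPM in 2D, 253 and 263 CPM at D3, and 266 and 240.2 CPM at D7, so that both organoid ages were far above 2D.

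The class II genes that the proteases serve were lower in culture as well. Of 11 listed, 8 passed the filter, and all 8 were lower in 2D than *in vivo*, 7 at D3 and 7 at D7. Their medians were -5.62, -3.55 and -2.00. The shares of all genes that were lower were 21.7%, 14.0% and 16.8%. *Cd74*, the invariant chain that cathepsin L and S degrade, had 296 and 313 CPM *in vivo*, 4.71 and 7.96 CPM in 2D, 16.2 and 19.4 CPM at D3, and 79.8 and 106 CPM at D7. *H2-Aa*, a class II chain, fell by 7.35 on the log2 scale in 2D (SE 0.25, edgeR adjusted p = 1.2e-12) and fell by 3.05 at D7 (SE 0.18, edgeR adjusted p = 1.6e-09). *Ciita*, the activator of class II transcription, had 104 and 93.9 CPM *in vivo*, 2.36 and 0.741 CPM in 2D and 3.71 and 3.48 CPM at D3. D7 organoids exceeded 2D in all 8 genes and D3 organoids in 6 of 8, with 1 lower. Among all genes, 24.4% were higher at D7 than in 2D and 10.9% higher than at D3.

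**Figure D4:**
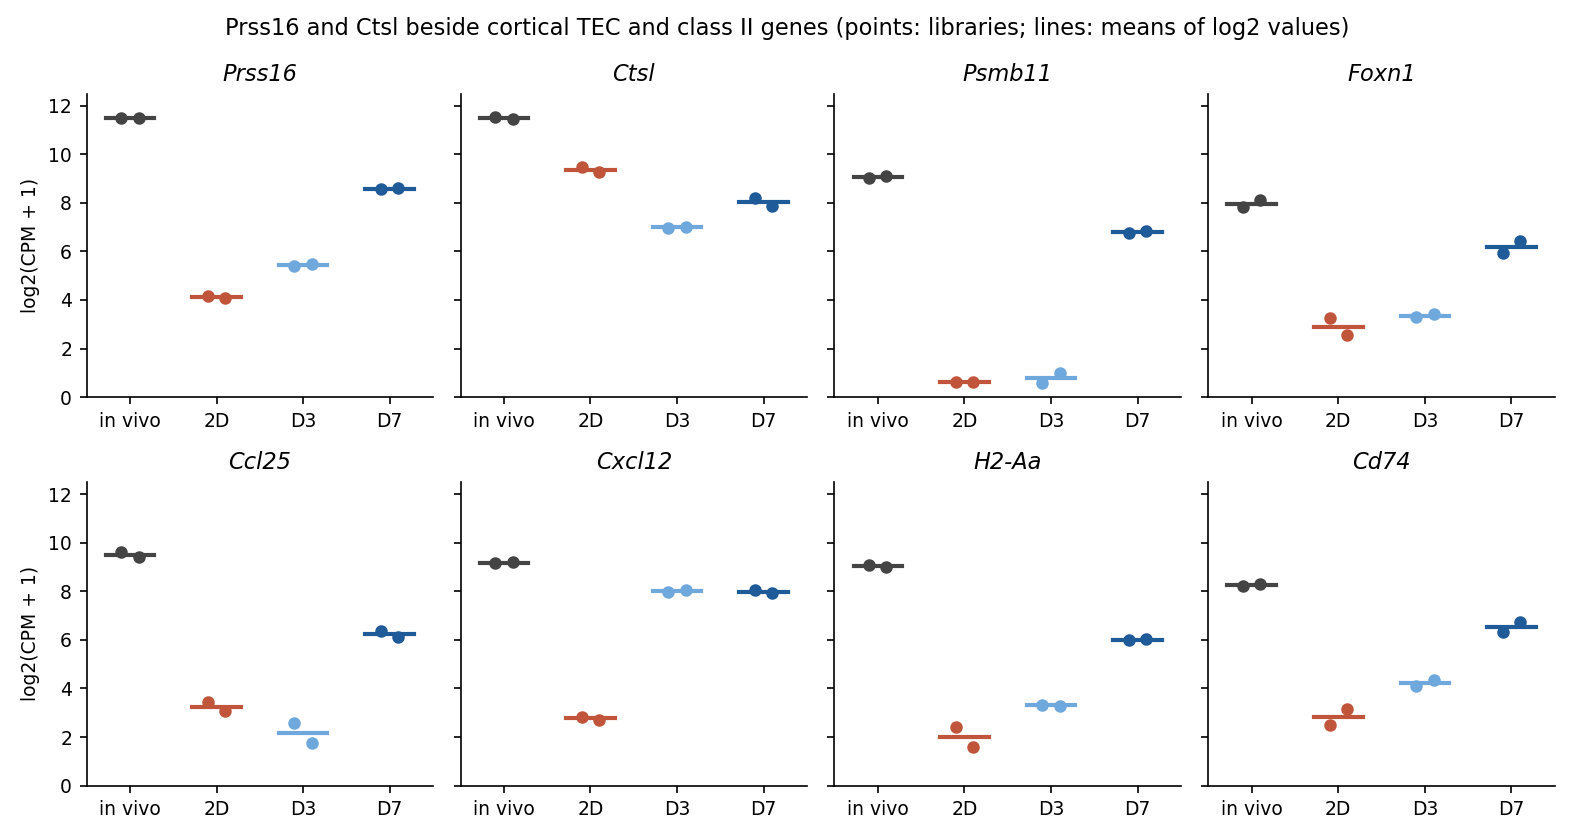
Log2(CPM + 1) (y axis) of *Prss16* and *Ctsl*, of the cortical TEC genes *Psmb11*, *Foxn1*, *Ccl25* and *Cxcl12* and of the class II genes *H2-Aa* and *Cd74* in each library (points) of the 4 groups, with lines at the mean of the log2 values. *Prss16* shares with *Psmb11*, *Foxn1*, *H2-Aa* and *Cd74* a low level in 2D and D3 and a higher one at D7, while *Ctsl* is higher in 2D than in the organoids.

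Among the 9009 genes with a mean of at least 10 CPM, the genes whose log2(CPM + 1) over the 8 libraries was most like that of *Prss16* were *H2-Aa*, *Clic5*, *Actn3*, *Ing1* and *Prxl2b*, with Pearson's r of 0.9952 to 0.9966. For *Ctsl* they were *Jun*, *Tmem150c*, *Parp14*, *Lamp2* and *Gch1*, with r of 0.9862 to 0.9942. *Jun*, a transcription factor induced by stress, had 664 to 684 CPM *in vivo*, 126 to 148 CPM in 2D, 21.9 to 31.3 CPM at D3 and 61.9 to 63.7 CPM at D7, and so followed *Ctsl* in the order of the groups. For *Ctss* they were *1300002E11Rik*, *Fos*, *Rag1*, *Bmp2k* and *Rnf213*, with r of 0.9664 to 0.9866. *Rag1*, at 133 to 286 CPM *in vivo*, is a thymocyte marker. The 8 points come from 4 groups and are the same for every gene, so these correlations are given as a description without a test.

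Calls among other lysosomal genes are to be read beside the 41.6% (2D), 28.2% (D3) and 34.8% (D7) of all genes called over *in vivo*. Of 21 other lysosomal and endosomal proteases, 8 passed the filter, of which 3 were higher and 1 lower in 2D than *in vivo*, 4 higher and 0 lower at D3, and 3 higher and 2 lower at D7 by edgeR. Medians were 0.75, 0.94 and 0.79. The carboxypeptidase gene *Ctsa*, whose product protects lysosomal glycosidases, rose from 7.63 and 9.0 CPM *in vivo* to 40.6 and 45.6 CPM in 2D, 35.2 and 37.6 CPM at D3 and 31.0 and 29.2 CPM at D7. *Ctsf*, a cysteine cathepsin, was at 2.60 and 7.45 CPM *in vivo* and at 3.99 and 6.30 CPM in 2D, and was higher in the organoids, at 18.9 and 21.3 CPM at D3 and 28.7 and 40.4 CPM at D7. *Tpp1*, a tripeptidyl peptidase gene, was highest in 2D, at 139 and 137 CPM against 37.1 and 50.5 CPM *in vivo*. *Prcp* and *Dpp7*, which belong to the same peptidase family as *Prss16*, differed from *in vivo* in 2D by log2 -0.76 (SE 0.37, edgeR adjusted p = 0.11) and 0.35 (SE 0.67, edgeR adjusted p = 0.71). *Prcp* was lower than *in vivo* at D7 (log2 -1.55, SE 0.38, edgeR adjusted p = 0.0044) and 4.08-fold lower at D7 than at D3 (log2 -2.03, SE 0.38, edgeR adjusted p = 0.0012), where *Prss16* was higher. *Dpp7* passed the threshold in none of the 6 comparisons.

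Of 25 lysosomal glycosidases, sulfatases and lipid hydrolases, all passed the filter, and 3 were higher and 4 lower in 2D, 7 higher and 2 lower at D3, and 9 higher and 2 lower at D7, with medians of 0.19, 0.18 and 0.24. *Man2b1*, the lysosomal mannosidase gene, was at 32.1 and 46.4 CPM *in vivo* and 36.1 and 43.3 CPM in 2D, and rose to 131 and 132 CPM at D3 and 114 and 116 CPM at D7. Of 24 genes for the lysosomal membrane, its acidification, sorting and regulation, 23 passed the filter, of which 8 were higher and 6 lower in 2D, 7 and 4 at D3, and 8 and 5 at D7. The genes of the main membrane proteins went opposite ways. *Lamp1* was at 71.7 and 84.9 CPM *in vivo* and at 171 to 254 CPM in the cultures, and *Lamp2* at 509 and 496 CPM *in vivo* and at 128 to 269 CPM in the cultures, and both passed the threshold in each culture. *Tfeb*, a transcription factor that switches on lysosomal genes, was at 1.21 and 1.27 CPM *in vivo*, 2.54 and 2.41 CPM in 2D, 4.72 and 5.99 CPM at D3 and 6.80 and 6.11 CPM at D7. Its rise passed the threshold at D3 (log2 2.09, SE 0.60, edgeR adjusted p = 0.015) and D7 (log2 2.36, SE 0.60, edgeR adjusted p = 0.0058) but not in 2D (0.98, SE 0.64, edgeR adjusted p = 0.23). Of the related factors, *Mitf* was lower than *in vivo* in 2D (log2 -2.79), at D3 (-3.97) and at D7 (-2.59), each past the threshold, and *Tfe3* passed it in no culture (0.44, 0.34 and 0.57).

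**Figure D5:**
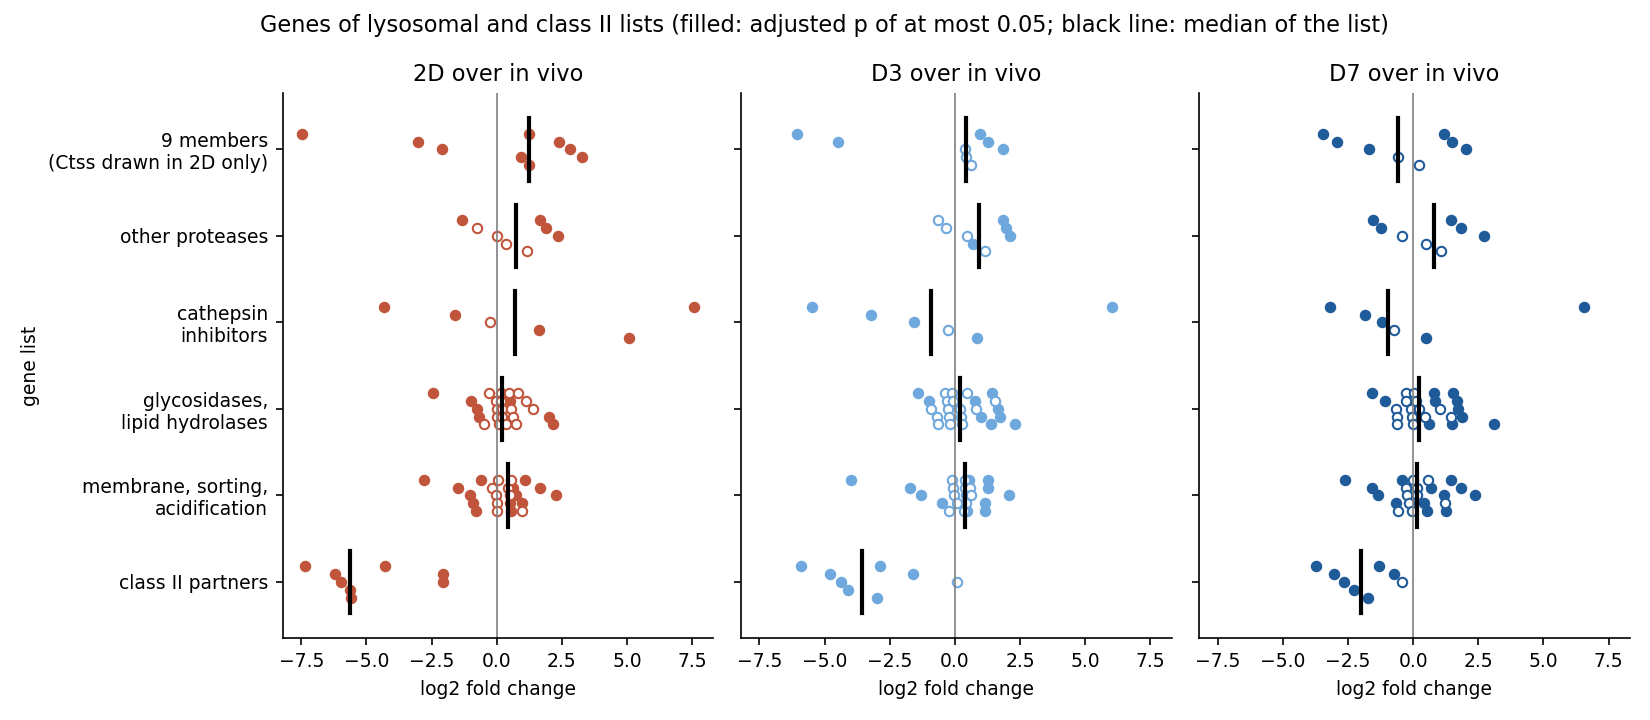
Log2 fold change over *in vivo* (x axis, shared by the 3 panels) of the genes of 6 lists (y axis), with filled points at or below an adjusted p of 0.05 and a black line at the median of each list. The class II partners lie left of 0 in 2D, with a median of -5.62, while the medians of the glycosidases and of the membrane genes stay between 0.16 and 0.44 in all 3 panels, and the members spread on both sides.

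Inhibitors of cathepsins were measured too. Of 15 listed, 6 passed the filter, with 3 higher and 2 lower in 2D, 2 higher and 3 lower at D3, and 2 higher and 3 lower at D7, and medians of 0.69, -0.91 and -0.95. *Cstb*, the cytosolic inhibitor cystatin B, had 1334 and 1244 CPM *in vivo*, 467 and 391 CPM in 2D, 133 and 145 CPM at D3, and 184 and 96.0 CPM at D7. It was thus highest *in vivo*, as was *Ctsl*. *Serpinb1a*, an inhibitor of neutrophil serine proteases such as cathepsin G, was at 10.2 and 5.48 CPM *in vivo*, 297 and 231 CPM in 2D, and 4.53 to 8.09 CPM in the organoids, and so was high in 2D alone among the 4 groups. *Cst6*, an inhibitor of legumain and cathepsin L singled out after its values were seen, had 0 counts in both *in vivo* libraries and 6 to 24 counts in each culture library. *Serpina3g* was at 30.5 and 32.5 CPM *in vivo*, 1.99 and 1.11 CPM in 2D, 0.505 and 0.836 CPM at D3 and 6.55 and 11.2 CPM at D7.

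In GRCm39, the build of the counts, *Prss16* spans chr13:22184773-22193912 and *Ctsl* chr13:64507151-64518704, both on the minus strand. *Ctsb* spans chr14:63358384-63383372 on the plus strand, and the gene *Fdft1* overlaps its 3′ end on the other strand. It had 106 and 48 counts *in vivo* and 140 to 405 in the cultures, and reads of this pair, too, cannot be told apart here. *Ctsd* lies at chr7:141929646-141941775 on the minus strand, where *Gm49369*, on the same strand, covers its 3′ end and had 0 counts in every library, and *Ctsc* at chr7:87927092-87960096 on the plus strand. *Ctss* lies at chr3:95433963-95463717 and *Ctsh* at chr9:89936205-89958148, both on the plus strand. *Ctsz* lies at chr2:174267304-174280832 and *Lgmn* at chr12:102359122-102414682, both on the minus strand. All 9 are protein-coding. Of the 50-base words in the last 500 bases of their transcripts, 0% were shared with another gene for *Prss16*, *Ctsb*, *Ctsd*, *Ctsh* and *Lgmn*, and at most 3.55% (*Ctsz*) for the others.

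TFEB binds an E-box with the letters CACGTG, which reads the same on both strands. RefSeq start windows of GRCm38.p6, from 250 bases before to 50 bases after a start, were at hand for 6 of the 9 members (*Ctsl*, *Ctsd*, *Ctss*, *Ctsz*, *Ctsc* and, with 2 windows, *Lgmn*), and not for *Prss16*, *Ctsb* and *Ctsh*. CACGTG occurred in 7.15% of the 32851 windows of all genes. It occurred in *Ctsl*, *Ctsd* and 1 window of *Lgmn*. The stretches are shown because these 3 members differ in direction: *Ctsl* was lower in every culture, *Ctsd* higher in every culture, and *Lgmn* higher at D3 and lower at D7. Capitals mark the E-box, and all are read 5′ to 3′ on the minus strand.
Ctsl, chr13:64370741-64370766: cgttagaagcCACGTGctgatctaaa
Ctsd, chr7:142388057-142388077: tccccCACGTGacctgtatcc
Ctsd, chr7:142387910-142387935: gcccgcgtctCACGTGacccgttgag
Lgmn, chr12:102439126-102439151: gaatgtctgtCACGTGgtccatttta

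The first bases of these E-boxes lie 236 bases (*Ctsl*), 245 and 98 bases (*Ctsd*) and 49 bases (*Lgmn*) before the RefSeq start. Matched to GRCm39, the RefSeq start lay 211 bases inside the main GENCODE transcript of *Ctsd*, 737 bases inside that of *Lgmn* and 154 bases before that of *Ctsl*, so the distance depends on the annotation. The core GACGC of the FOXN1 motif, searched on both strands, occurred in 27.2% of all windows. It occurred 3 times in *Ctsd* and 1 time in the other window of *Lgmn*, and not in the window of *Ctsl*. A match of letters is a description of the sequence and not evidence of binding.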

How the data were processed

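Bulk RNA was measured in 8 libraries of TECs, made with the QuantSeq 3′ kit. The authors aligned reads to GRCm39 with STAR and deposited raw counts per Ensembl gene, unnormalized. The submitters' processing notes name R 4.1.2, edgeR and limma. The annotation release, the use of strand and the handling of multi-mapping reads are not given in the sources used here. Of 56923 ids, 56236 matched GENCODE vM39 and 687 did not.

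Counts were analysed in R 4.3.3 with edgeR 4.0.16 (TMM factors 0.880 to 1.09, filter of 1 CPM in 3 libraries, 1 model of 8 libraries with group as the only factor), DESeq2 1.42.0 and limma 3.58.1. Tables and figures were made with matplotlib 3.10.9, scipy 1.17.1 and pandas 2.3.3 under Python 3.11.15. The authors' own test was limma-voom, which was run here as an alternative. The fit was tested on simulated counts. Total counts per library were 5084715 to 7612532, of which 18S ribosomal RNA took 16.6% to 24.3%. A level of 3 counts was 0.371 to 0.591 CPM. Libraries of 1 group differed beyond sampling noise (chi-square per degree of freedom 6.82 to 8.70).

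The members and gene lists were chosen with earlier results of these data known. All members are named. Of each other list, at most 4 genes are named, those with the lowest p over the 3 differences from *in vivo*, apart from genes a result turns on and *Cst6*. Alternatives were DESeq2 size factors, library size alone, limma-voom, DESeq2's Wald test, no filter, a mean of at least 10 CPM, a replicate block, a minimum size of 1 for the log2 fold change, only the 2 groups compared and each library left out in turn. Leaving out the row of ribosomal RNA was chosen after seeing the data.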

Additional observations from a re-analysis of the deposited data

How the results depend on the processing

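Of 529 values under settings that keep all libraries, 506 kept their direction and their side of the threshold, 15 lost and 6 gained significance and 2 reversed. With each library left out in turn, 389 of 414 did so. Neither total holds the fits in which *Ctss* missed the filter and had no test. These were the fits without either *in vivo* library or 2D replicate 2, at a mean of at least 10 CPM, and some with only the 2 groups compared. A minimum size of 1 for the log2 fold change left 2724 of 4089 genes for D3 over *in vivo*, 3311 of 5043 for D7 over *in vivo* and 1688 of 3011 for D7 over D3. With single libraries left out, all-gene counts were 3015 to 5031 for D7 over *in vivo* and 1183 to 3417 for D7 over D3, lowest in each case without D7 replicate 2, and 1659 for D7 over D3 without D3 replicate 1. Members past the threshold then numbered 5 to 8 for D3 over 2D and 3 to 6 for D7 over D3.

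The reversals were in differences near 0. *Ctsb* in D7 over 2D (-0.02) was 0.18 with library size alone, 0.03 at a mean of at least 10 CPM and -0.11 to 0.08 with libraries left out. *Ctsz* with libraries left out ran from -0.21 to 0.58 for D7 over *in vivo* and from -0.61 to 0.18 for D7 over D3. Among calls of members, *Lgmn* in 2D over *in vivo* was 0.76 (edgeR adjusted p = 0.075) with library size alone. *Ctss* in D3 over 2D had an adjusted p of 0.13 by limma-voom. *Ctsz* in D3 over 2D was lost under 6 of the settings that keep all libraries, *Ctsh* in D3 over *in vivo* was gained under 5. The cause was not tested.

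Replicate numbers are shared by the groups, but deviations of same-numbered libraries correlated only at r = 0.026 to 0.132 across genes, so the numbers were not taken to pair them. With the replicate block, members past the threshold were 9, 7, 8, 8, 7 and 6 in the order 2D, D3 and D7 over *in vivo*, D3 and D7 over 2D, and D7 over D3, with *Ctsh* at D3 and *Ctsc* at D7 over *in vivo* gained (edgeR adjusted p = 0.036 for each). Depth limits *Ctss*, whose counts were 0 to 8 per culture library.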

Other observations

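Medullary TEC genes, which mark the other main epithelial lineage of the thymus, were measured beside the members, with *Ctss*, itself counted among them, left out. Of 11 listed, 8 passed the filter, of which 5 were higher and 2 lower in 2D than *in vivo*, 4 and 3 at D3, and 3 and 4 at D7. *Cldn4*, a tight junction gene, had 9.89 and 10.8 CPM *in vivo*, 1098 and 1202 CPM in 2D, 54.6 and 53.9 CPM at D3, and 55.5 and 65.6 CPM at D7. *Krt14*, a basal keratin, had 19.8 and 22.2 CPM *in vivo* and 916 and 1044 CPM in 2D. *Ccl21a*, a chemokine of medullary TECs, was at 28.6 and 26.7 CPM *in vivo*, 133 and 142 CPM in 2D, and 0.197 to 1.52 CPM in the organoids. The 2 genes that were lower in 2D were *Tnfrsf11a* (log2 -2.41) and *Cd40* (-1.50), receptors of the tumour necrosis factor family, and both were lower in the organoids as well. Epithelial keratins differed from each other in the organoids. *Krt18* was at 3585 and 3150.5 CPM in 2D and at 249.8 to 494 CPM in the organoids, against 1659 and 1824 CPM *in vivo*, whereas *Krt19* was at 4.51 and 9.14 CPM *in vivo*, 274 and 281 CPM in 2D and 82.1 to 131 CPM in the organoids.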
